A study of Homo sapiens with 8 samples.

Results

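The human mitochondrial genome encodes 37 genes, and their RNA was followed here in the 8 RNA sequencing libraries of the study. The members were all genes whose GENCODE symbol begins with MT- on the mitochondrial chromosome, namely 13 mRNAs, 2 rRNAs and 22 tRNAs, out of 69215 genes in each deposited table. The expression filter of the test kept 18 of the 37, which were all 13 mRNAs, both rRNAs and the tRNAs MT-TV, MT-TM and MT-TH. The other 19, all tRNAs, were too low to be tested.

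The study asked what the re-expression of SMARCB1 does in rhabdoid tumor cells. All cells were G401, an established cell line of a kidney rhabdoid tumor, which lacks SMARCB1, a core subunit of the mSWI/SNF chromatin remodelling complexes. G401 had been given a Tet-On construct, in which doxycycline (Dox) turns on SMARCB1 in one line and GFP in the control line. Each group pairs one line with one exposure of 12 h, either Dox at 0.1 µg/ml or the solvent DMSO, and is named SMARCB1 Dox, SMARCB1 DMSO, GFP Dox or GFP DMSO, with 2 libraries each. Every group therefore carried a Tet-On construct and none was an unmodified cell line. Plates of one condition were pooled into each sample, and the methods of the paper state that the experiments were done in duplicate. No label says that the 2 libraries of a group came from separate cultures, so p-values measure only the spread between these libraries. As a check of the labels, the counts of SMARCB1 were 30474 and 29383 in SMARCB1 Dox, 10 and 21 in SMARCB1 DMSO, and 0 in all 4 GFP libraries. Each library held 29632090 to 37597477 counts assigned to genes.

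Mitochondrial DNA is a small circle that each cell keeps in many copies. Its strands, named heavy and light for their density, are both transcribed by the polymerase POLRMT with the factors TFAM and TFB2M into long precursors that cover many genes. The tRNAs between the other genes are cut out by RNase P and ELAC2, which frees the mRNAs and rRNAs, and after that each RNA is tailed, bound and degraded at its own rate. The mRNAs encode core subunits of respiratory complexes I, III and IV and of ATP synthase, whose remaining subunits come from nuclear genes. In the annotation used here, 28 of the 37 genes are copied from the heavy strand, including both rRNAs, 12 mRNAs and 14 tRNAs. The other 9 are copied from the light strand, which are the mRNA MT-ND6 and 8 tRNAs.

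The layout of the genome sets what can be counted. All genes are single exons on 16569 bases of chrM (GRCh38), and neighbours often touch. Each of 2 pairs of mRNAs is read from one shared RNA with overlapping coding regions. The overlaps of these pairs are printed because a read inside them belongs to both genes, and the counting rule of the authors assigns such a read to neither. MT-ATP8 (chrM:8366-8572, plus strand) and MT-ATP6 (chrM:8527-9207, plus strand) encode ATP synthase subunits and share 46 bases. MT-ND4L (chrM:10470-10766, plus strand) and MT-ND4 (chrM:10760-12137, plus strand) encode complex I subunits and share 7 bases. In the annotation MT-ATP6 and MT-CO3 (chrM:9207-9990, plus strand) also meet at base 9207, which is not printed. Capitals mark the shared bases, with 10 bases on each side.
MT-ATP8/MT-ATP6, chrM:8517-8582, plus strand: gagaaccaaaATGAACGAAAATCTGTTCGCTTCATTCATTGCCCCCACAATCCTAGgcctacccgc
MT-ND4L/MT-ND4, chrM:10750-10776, plus strand: acctactccaATGCTAAaactaatcgt

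The asymmetry of the strands is visible in the mRNAs themselves. MT-ND6, a complex I subunit and the only light-strand mRNA, holds 35.6% G and 7.05% C, whereas the 12 heavy-strand mRNAs hold 6.28% to 16.2% G and 29.5% to 36.0% C. The first 60 bases of MT-ND6 are set beside those of MT-ND1 and MT-CYB, whose levels differed least and most between the lines in DMSO. Capitals mark each G.
MT-ND6, chrM:14614-14673, minus strand: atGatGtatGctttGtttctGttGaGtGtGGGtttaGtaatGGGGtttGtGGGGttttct
MT-ND1, chrM:3307-3366, plus strand: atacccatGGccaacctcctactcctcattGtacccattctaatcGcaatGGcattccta
MT-CYB, chrM:14747-14806, plus strand: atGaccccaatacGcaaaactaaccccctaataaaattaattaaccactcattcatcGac

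In 6 of the 13 mRNAs the annotated gene ends inside a codon, and the stop codon is completed by the A residues added to the RNA after cleavage. Their last bases are printed because they show how closely these mRNAs abut the next gene. Capitals mark the incomplete codon.
MT-ND1, chrM:4249-4262, plus strand: ccccctcaaaccTA
MT-ND2, chrM:5499-5511, plus strand: ctaataatcttaT
MT-CO3, chrM:9978-9990, plus strand: tgatgagggtctT
MT-ND3, chrM:10392-10404, plus strand: gactgaaccgaaT
MT-ND4, chrM:12125-12137, plus strand: gggttttcctctT
MT-CYB, chrM:15875-15887, plus strand: ctcaaatgggccT

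Copies of mitochondrial DNA in the nuclear genome limit the counts further. A window of 50 bases was taken at every position of each gene and looked for, base by base, in the nuclear chromosomes. An exact copy existed for 50.6% of the windows of MT-CO1, 46.7% of MT-ATP6, 43.7% of MT-RNR1 and 43.6% of MT-ND2, but for 1.65% of MT-CYB and none of MT-ND3 and MT-ND4L. With windows of 100 bases the shares were 27.9% for MT-CO1, 26.1% for MT-ND2 and 0 for MT-ND4, MT-ND5, MT-ND6 and MT-CYB. The longest exact copy ran over 279 bases. A read from such a stretch fits both places, and reads with several places were not assigned, so levels of MT-CO1, MT-ND2 and MT-ATP6 may be understated. The read length was not given in the sources used here. The annotated copy of MT-ND2 on chromosome 1, MTND2P28, held 5.78% to 6.99% as many counts as MT-ND2, and MTCO1P12 held 2.24% to 2.78% as many as MT-CO1. Reads of the copies and of the mitochondrial genes could not be told apart from the tables.

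Mitochondrial genes took up a large part of every library. They held 22.9% and 21.3% of the gene counts in SMARCB1 Dox, 27.9% and 23.9% in SMARCB1 DMSO, 18.9% and 20.9% in GFP Dox, and 21.5% and 21.0% in GFP DMSO. The group means were 22.1% ± 1.11, 25.9% ± 2.87, 19.9% ± 1.39 and 21.3% ± 0.369 in the same order (SD, n = 2). Both SMARCB1 DMSO libraries stood above the other 6, and within the SMARCB1 line the Dox and DMSO libraries did not overlap. The GFP Dox and GFP DMSO libraries did not overlap either, with Dox lower. The nearest libraries were close in both lines, at 22.9% and 23.9% in the SMARCB1 line and 20.9% and 21.0% in the GFP line. The 95% Wilson intervals of these shares were at most 0.031 percentage points wide and cover counting error only, so the spread between replicates was far larger than the counting error. In bulk RNA, fewer mitochondria per cell, less RNA per mitochondrion and more RNA from the nucleus cannot be told apart, nor can fewer cells of a kind and less RNA per cell.

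**Figure D1:**
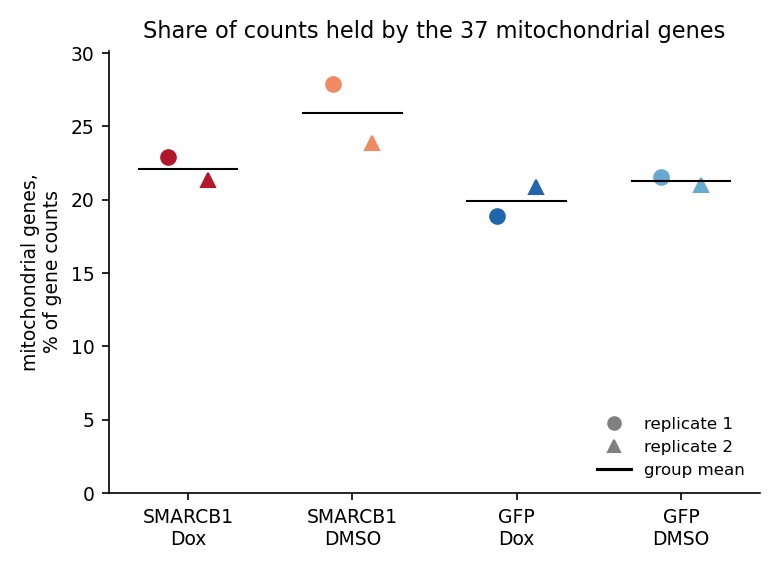
Percent of all gene counts held by the 37 mitochondrial genes (vertical axis, from 0), by group (horizontal axis). Circles and triangles are replicates 1 and 2 and lines are the means of 2. Both SMARCB1 DMSO libraries, at 27.9% and 23.9%, lie above the other 6.

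The mRNAs carried nearly all of this RNA, 99.98% to 99.99% of the mitochondrial counts. Levels were compared between genes as counts per 1000000 per kb of gene (CPM per kb, with TMM scaling between libraries). MT-CO2, a catalytic subunit of complex IV, was highest with a mean of 35230 CPM per kb over the 8 libraries (range 28210 to 49740). The complex I subunit MT-ND4 followed with 29510, and the complex IV subunits MT-CO1 and MT-CO3 with 28160 and 26390. The ATP synthase subunits MT-ATP6 and MT-ATP8 had 21850 and 21060. The complex I subunits MT-ND2 and MT-ND1 had 19080 and 17050, MT-CYB, the only mitochondrial subunit of complex III, had 15420, and the complex I subunit MT-ND5 had 11430.

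These 10 mRNAs lay close together and their order was not the same in all libraries. MT-CO2 stood above MT-ND4 in 8 of 8 libraries and MT-CO3 above MT-ATP6 in 8 of 8. MT-ATP6 stood above MT-ATP8 in 5 of 8, so these neighbours did not differ beyond the spread of the libraries. MT-ND1 stood above MT-CYB in 4 of 8, which were the 4 libraries of the GFP line, and below it in the 4 of the SMARCB1 line. The 3 lowest mRNAs were set apart in every library. MT-ND4L had a mean of 3916 CPM per kb (range 3216 to 5174), MT-ND3 had 1249 (1019 to 1590) and MT-ND6 had 46.0 (28.3 to 79.4).

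The members of the pairs were at like levels in one pair and unlike levels in the other. Per kb, MT-ATP6 had 0.949 to 1.16 times the level of MT-ATP8, whereas MT-ND4 had 6.98 to 7.93 times the level of MT-ND4L, although each pair sits on one RNA. MT-ATP8 has 207 bases, MT-ND4L 297 and MT-ND3 346, and of these 3 the shortest had the highest level per kb. A read counted only if it lay wholly inside one gene, which removes more reads from short genes, and its part in these levels was not tested.

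**Figure D2:**
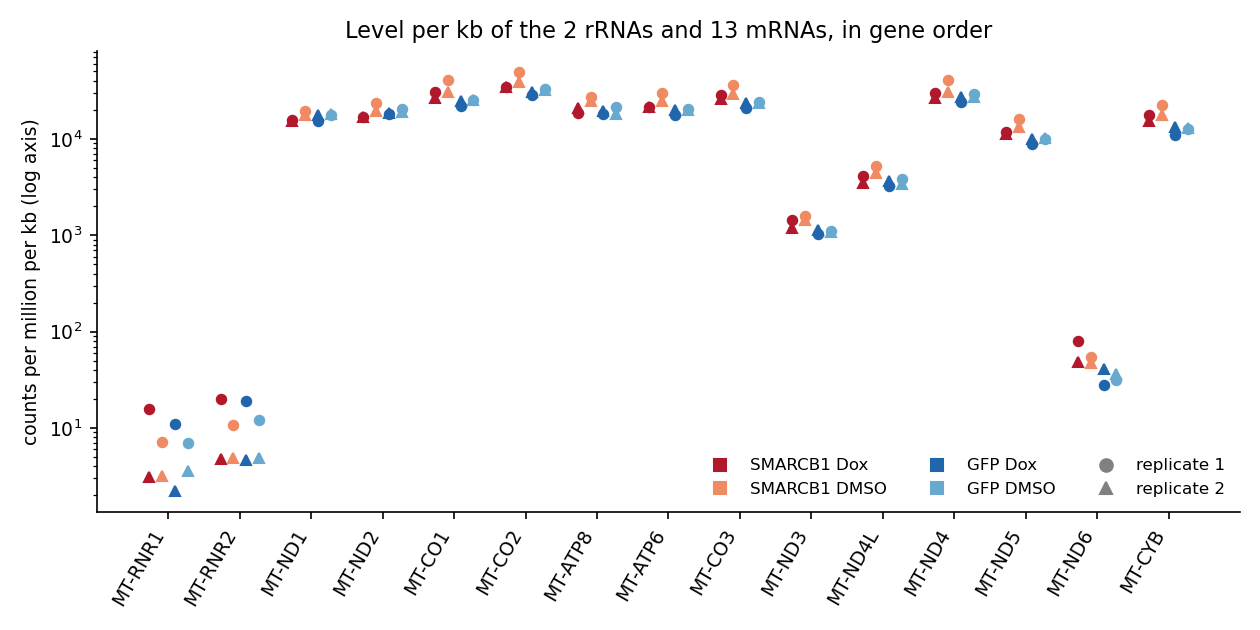
CPM per kb of the 2 rRNAs and 13 mRNAs (vertical log axis) in the order of the genes on the chromosome (horizontal axis), with 1 point per library, colors for groups and circles and triangles for replicates 1 and 2. Of the mRNAs, 10 lie between 8858 and 49740, with MT-ND4L, MT-ND3 and MT-ND6 below them and both rRNAs lowest.

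The rRNAs and tRNAs were nearly absent from these counts. MT-RNR1 (chrM:648-1601), the RNA of the small mitochondrial ribosome subunit, had 534 and 103 counts in SMARCB1 Dox, 198 and 100 in SMARCB1 DMSO, 320 and 78 in GFP Dox, and 224 and 132 in GFP DMSO. MT-RNR2 (chrM:1671-3229), the RNA of the large subunit, had 1107 and 262, 492 and 253, 914 and 264, and 644 and 295 in the same order. In both rRNAs every replicate 1 library was above every replicate 2 library, whatever its group. Per kb, MT-RNR2 had a mean of 10.2 CPM and MT-RNR1 of 6.60, below every mRNA. Together the rRNAs had 43.9 to 220.4 counts per 1000000 counts of mitochondrial mRNA. These are abundant RNAs of living cells, and neither the labels nor the methods say whether rRNA was depleted, so no level of mitochondrial ribosomes can be read from them. Of nuclear RNAs without poly(A) tails, RN7SL1 had 2945 to 5277 CPM, RMRP 2506 to 3827 and the 63 histone genes together 2201 to 3227. RN7SK, RPPH1 and RN7SL2 showed 0 in all libraries, a value that a symbol without a matching entry would also give.

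The 22 tRNAs are 59 to 75 bases long and had 37 to 79 counts together per library. For 13 of them no count was found in any library, which allows up to 3 counts per library. The only tRNA with at least 10 counts in every library was MT-TM, the methionine tRNA (chrM:4402-4469, plus strand), with 14 to 40. Its sequence is printed because it was the highest of the 22.
MT-TM, chrM:4402-4469, plus strand: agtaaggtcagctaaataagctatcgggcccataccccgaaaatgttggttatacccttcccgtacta
MT-TV had 8 to 24 counts and MT-TH 2 to 14. Over all libraries, the 14 heavy-strand tRNAs had 428 counts and the 8 light-strand tRNAs had 2. Short, structured and heavily modified RNA is poorly caught by RNA sequencing, and these counts give no tRNA level.

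The lines differed before any induction. In DMSO, where SMARCB1 was nearly off, 11 of the 13 mRNAs were higher in the SMARCB1 line than in the GFP line at an adjusted p under 0.05 (edgeR quasi-likelihood test, Benjamini-Hochberg over 15931 genes) and none was lower. Of all genes tested, 32.0% were called between the lines and 16.3% were called higher. The median log2 fold change was 0.45 over the 13 mRNAs and 0.015 over all genes. Neither rRNA was called, with log2 fold changes of -0.04 for MT-RNR1 and -0.12 for MT-RNR2, and the 3 tested tRNAs were not called either. The groups did not overlap in CPM for 11 of the 13 mRNAs, where 33.1% of all genes lay apart in this direction.

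MT-CYB (chrM:14747-15887), the cytochrome b of complex III, showed the largest difference among the mRNAs. It had 25810 and 20230 CPM in SMARCB1 DMSO and 14450 and 14750 in GFP DMSO. Both SMARCB1 libraries lay clear of the GFP libraries, with a log2 fold change of 0.66 ± 0.12 (SE) and an adjusted p of 1.42e-04 by edgeR. In complex IV, MT-CO1 (chrM:5904-7445) had 62840 and 47050 CPM in SMARCB1 DMSO against 39020 and 38840 in GFP DMSO. The log2 fold changes of the complex IV subunits were 0.50 for MT-CO1, 0.46 for MT-CO2 and 0.47 for MT-CO3, and all 3 passed the test. The ATP synthase subunits MT-ATP6 and MT-ATP8 were higher by 0.45 and 0.41.

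Complex I was divided. MT-ND5 (chrM:12337-14148) had 29310 and 23780 CPM in SMARCB1 DMSO and 18160 and 18650 in GFP DMSO, a log2 fold change of 0.53 ± 0.11 (SE, edgeR adjusted p = 4.66e-04). MT-ND6, MT-ND3, MT-ND4L and MT-ND4 were called as well, with log2 fold changes of 0.58, 0.45, 0.40 and 0.35. The others were MT-ND1 (chrM:3307-4262), with 18690 and 16790 CPM against 16750 and 17250, and MT-ND2 (chrM:4470-5511), with 24460 and 20180 against 21220 and 20000. In both the groups overlapped, and the log2 fold changes were 0.06 ± 0.10 and 0.12 ± 0.10 (SE) with edgeR adjusted p of 0.678 and 0.419. These are the first mRNAs after the rRNAs on the heavy-strand precursor.

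MT-CYB, MT-ND5, MT-ND3, MT-CO1, MT-CO2, MT-CO3 and MT-ATP6 were called in every alternative run. The calls of MT-ND6, MT-ND4, MT-ND4L and MT-ATP8 were each lost without at least 1 library. MT-ND4 was called in 12 of 18 runs, the main one included, and was also lost under some choices of processing with all libraries kept. SMARCB1 DMSO replicate 1 was the higher of its group for all 13 mRNAs. Without it, 8 members were called higher and the median log2 fold change of the 13 mRNAs was 0.31, and without SMARCB1 DMSO replicate 2 it was 0.56 with 12 called. Without GFP DMSO replicate 1 or 2, 9 or 8 were called. Scaling by library totals moved the median of all genes from 0.015 to -0.10, and the mRNA median then stood at 0.33. Each line is a single engineered derivative here, so the construct and the line cannot be told apart.

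Over all 4 libraries of a line, with Dox and DMSO together, 8 of the 13 mRNAs had CPM ranges that did not overlap between the lines, all higher in the SMARCB1 line, against 20.0% of all genes that lay apart in this direction. These were MT-CO1, MT-CO2, MT-CO3, MT-ATP6, MT-ND3, MT-ND5, MT-ND6 and MT-CYB. For MT-CYB the SMARCB1 line had 17520 to 25810 CPM and the GFP line 12530 to 15290.

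The lines also differed in how the mitochondrial RNA was divided among genes, which does not depend on scaling between libraries. MT-ND1 made up 6.53% and 6.91% of the mitochondrial counts in SMARCB1 Dox, 6.07% and 6.88% in SMARCB1 DMSO, 8.05% and 8.23% in GFP Dox, and 7.95% and 8.38% in GFP DMSO. The 4 libraries of the SMARCB1 line all lay below the 4 of the GFP line. MT-ND2 showed the same order, with 7.72% to 8.27% in the SMARCB1 line and 9.52% to 10.3% in the GFP line. MT-CYB went the other way, with 8.27% to 8.84% in the SMARCB1 line and 6.86% to 7.52% in the GFP line. MT-CO1, MT-CO3 and MT-ND5 were also set apart with higher shares in the SMARCB1 line, while the ranges of the remaining 7 mRNAs overlapped.

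Set against each other in the same library, MT-CYB had 1.20 to 1.38 counts per count of MT-ND1 in the SMARCB1 line and 0.855 to 0.913 in the GFP line. MT-CO1 had 2.33 to 2.67 counts per count of MT-ND2 in the SMARCB1 line and 1.81 to 1.96 in the GFP line. These pairs were chosen after their values were seen, and the ratios are given as a description. Shares are tied to each other, since a gene with a larger share leaves less for the rest.

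**Figure D3:**
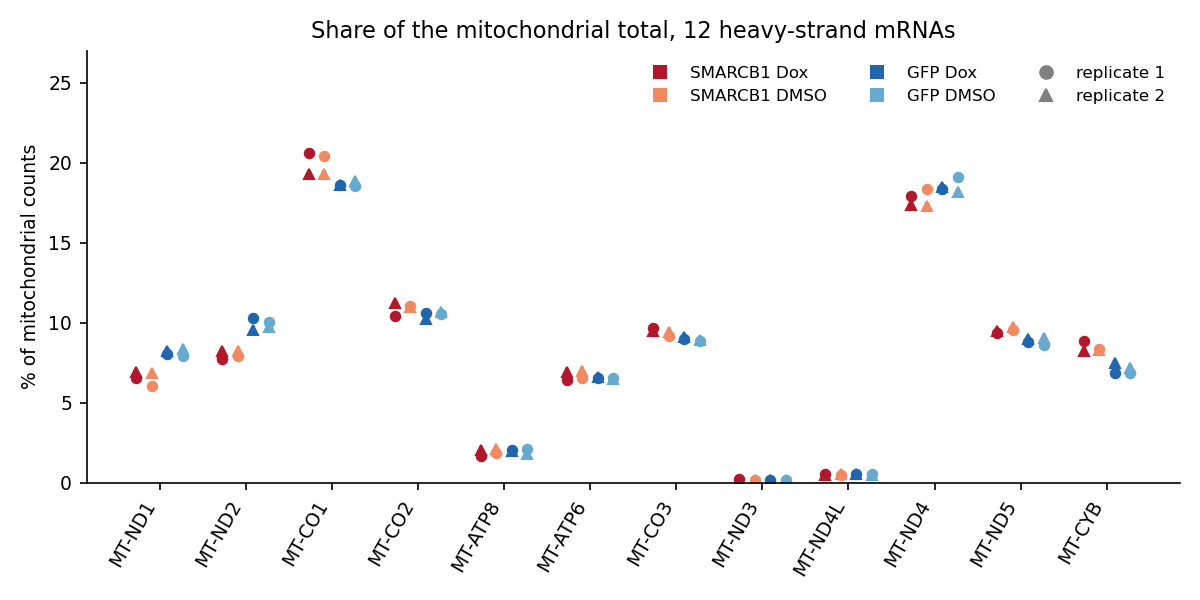
Percent of the mitochondrial counts of a library (vertical axis, from 0) held by each of the 12 heavy-strand mRNAs (horizontal axis), with 1 point per library, colors for groups and shapes for replicates. MT-ND1 and MT-ND2 lie lower in all 4 SMARCB1 line libraries than in all 4 GFP line libraries, and MT-CYB lies higher.

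Some of the same mRNAs were lower with Dox in the SMARCB1 line. Between SMARCB1 Dox and SMARCB1 DMSO, 6 of the 13 mRNAs fell at an adjusted p under 0.05 (edgeR, Benjamini-Hochberg) and none rose. Of all genes tested, 14.0% were called in this comparison and 5.69% were called lower. The median log2 fold change was -0.32 over the 13 mRNAs and -0.0038 over all genes, and 12 of the 13 values were negative. In CPM, 11 of the 13 mRNAs had both Dox libraries below both DMSO libraries, which 25.2% of all genes also had.

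The ATP synthase mRNAs were both among those called. MT-ATP8 had 3830 and 4300 CPM in SMARCB1 Dox and 5657 and 5170 in SMARCB1 DMSO. Dox was lower in both libraries, with a log2 fold change of -0.41 ± 0.098 (SE, edgeR adjusted p = 0.00608). MT-ATP6 had 14640 and 14640 CPM against 20130 and 16990, a log2 fold change of -0.34 ± 0.10 (SE, edgeR adjusted p = 0.0235). In complex I, MT-ND2 had 17620 and 17470 CPM against 24460 and 20180, MT-ND5 had 21440 and 20120 against 29310 and 23780, and MT-ND4L had 1228 and 1043 against 1537 and 1304. Their log2 fold changes were -0.35, -0.35 and -0.32, and the gap to SMARCB1 DMSO replicate 2 was the smaller one in each. In complex IV, MT-CO2 fell by 0.35 on the log2 scale, from 34020 and 26840 CPM to 23810 and 23850.

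The remaining mRNAs did not pass the test, though most had values of a like size. MT-CO1 and MT-CO3 of complex IV had log2 fold changes of -0.32 and -0.28, MT-ND4, MT-ND1 and MT-ND3 of complex I had -0.34, -0.26 and -0.19, and MT-CYB of complex III had -0.29. Their edgeR adjusted p values ran from 0.0580 for MT-ND4 to 0.191 for MT-ND3. Hence the line between called and not called mRNAs does not part groups that were shown to differ.

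These calls depended on single libraries. The count of members called was 1 without SMARCB1 DMSO replicate 1, which had the highest mitochondrial share of all libraries, and 11 without SMARCB1 DMSO replicate 2. It was 2 without SMARCB1 Dox replicate 1 and 3 without SMARCB1 Dox replicate 2, of which MT-ATP8 was lower and MT-ND6 and MT-RNR1 were higher. The median log2 fold change of the 13 mRNAs stayed negative, at -0.17, -0.46, -0.35 and -0.25 in this order. The comparison shares the SMARCB1 DMSO libraries with the comparison of the lines, so a high value in them raises one and lowers the other.

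In the GFP line Dox gave no call. None of the 13 mRNAs passed the edgeR test or had an unadjusted p under 0.05, DESeq2 also called 0, and 0.0% of all genes were called. The median log2 fold change over the 13 mRNAs was -0.10, with values from -0.14 for MT-CO2 to 0.02 for MT-ND6, and 12 of 13 were negative. MT-ATP8 had 3738 and 4023 CPM in GFP Dox and 4425 and 3737 in GFP DMSO, and these libraries overlapped. For 4 of the 13 mRNAs, MT-ND1, MT-ND2, MT-CO1 and MT-CO2, both GFP Dox libraries were below both GFP DMSO libraries, which 13.2% of all genes also were. Without GFP Dox replicate 1 the median was -0.02, and without GFP Dox replicate 2 it was -0.20.

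The difference between the Dox effects of the lines was tested directly. It was called for 0 of the 18 members by edgeR and by DESeq2, where 4.71% of all genes were called, and 1 member had an unadjusted p under 0.05. This was MT-ATP8, with a difference of -0.34 ± 0.14 on the log2 scale (SE, edgeR adjusted p = 0.204). The median difference over the 13 mRNAs was -0.22, and it was -0.07 without SMARCB1 DMSO replicate 1 and -0.36 without SMARCB1 DMSO replicate 2. A lower level of mitochondrial mRNA with Dox was therefore not shown to be particular to the SMARCB1 line, and a p that misses the threshold does not show that the lines responded alike.

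**Figure D4:**
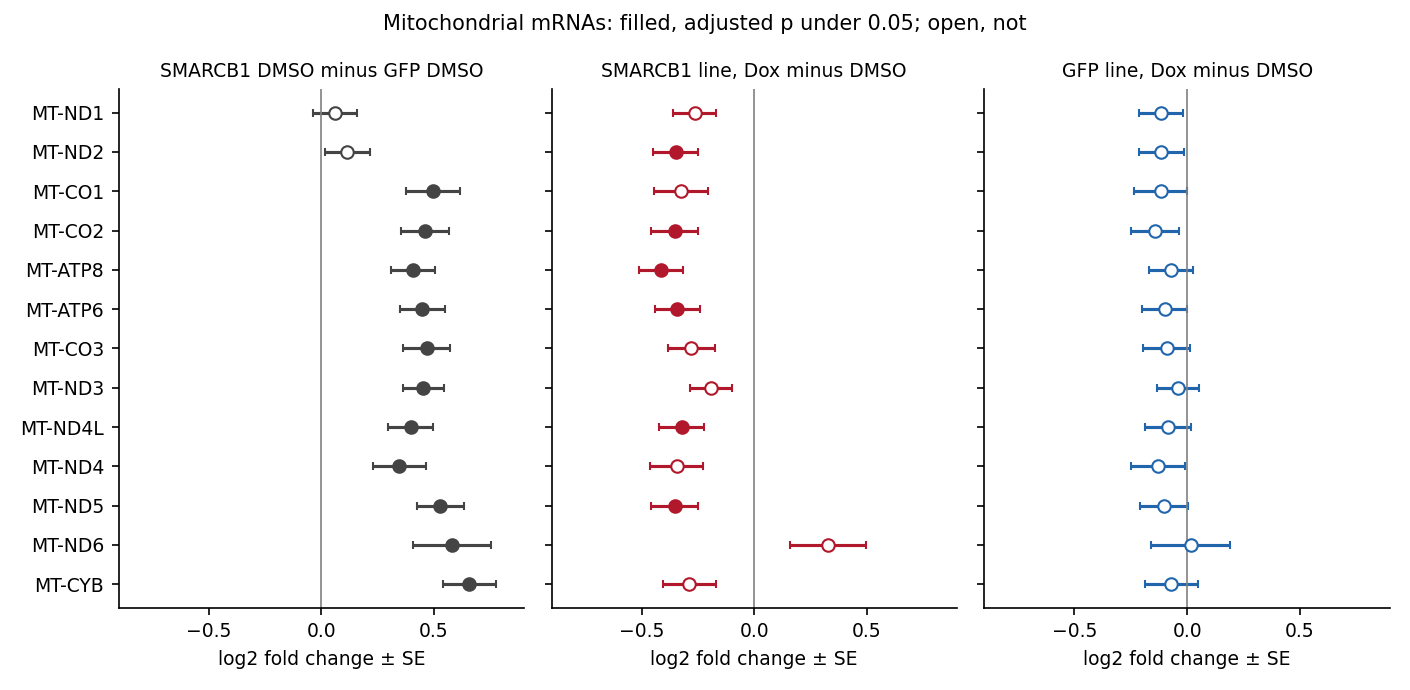
Log2 fold change (horizontal axis) with its standard error for each of the 13 mRNAs in gene order (vertical axis), for SMARCB1 DMSO against GFP DMSO, Dox against DMSO in the SMARCB1 line and Dox against DMSO in the GFP line. Filled points have an edgeR adjusted p under 0.05. MT-ND1 and MT-ND2 lie near 0 in the first panel, and MT-ND6 lies to the right of 0 in the second while the other 12 lie to the left.

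MT-ND6 (chrM:14149-14673, minus strand), the light-strand mRNA, had a positive value with Dox in the SMARCB1 line that rested on 1 library. It had 1483 and 898 counts in SMARCB1 Dox, 843 and 818 in SMARCB1 DMSO, 457 and 781 in GFP Dox, and 562 and 739 in GFP DMSO. In CPM it had 41.7 and 25.7 in SMARCB1 Dox and 28.9 and 24.8 in SMARCB1 DMSO, which overlapped. The log2 fold change was 0.33 ± 0.17 (SE), the only positive one of the 13 mRNAs, and it was not called (edgeR adjusted p = 0.229). The median over the 12 heavy-strand mRNAs was -0.33.

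Relative to the heavy-strand mRNAs of the same library, MT-ND6 had 182.6 and 121.3 counts per 1000000 heavy-strand counts in SMARCB1 Dox, 94.0 and 101.6 in SMARCB1 DMSO, 81.6 and 104.9 in GFP Dox, and 79.0 and 93.5 in GFP DMSO. The SMARCB1 Dox libraries held the highest values of the 8, and one of them, replicate 1, lay far above the other. The group means were 151.9 ± 43.3, 97.8 ± 5.42, 93.3 ± 16.5 and 86.3 ± 10.3 (SD, n = 2). As a sum over members this ratio was not tested. Without SMARCB1 Dox replicate 1 the log2 fold change of MT-ND6 was -0.06 and not called. Without SMARCB1 Dox replicate 2, where the Dox group is replicate 1 alone, it was 0.63 and called higher, and MT-RNR1 was called as well. The strand option of the counting was not given, and counts of MT-ND6 could include reads of the opposite RNA if strand was not used.

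**Figure D5:**
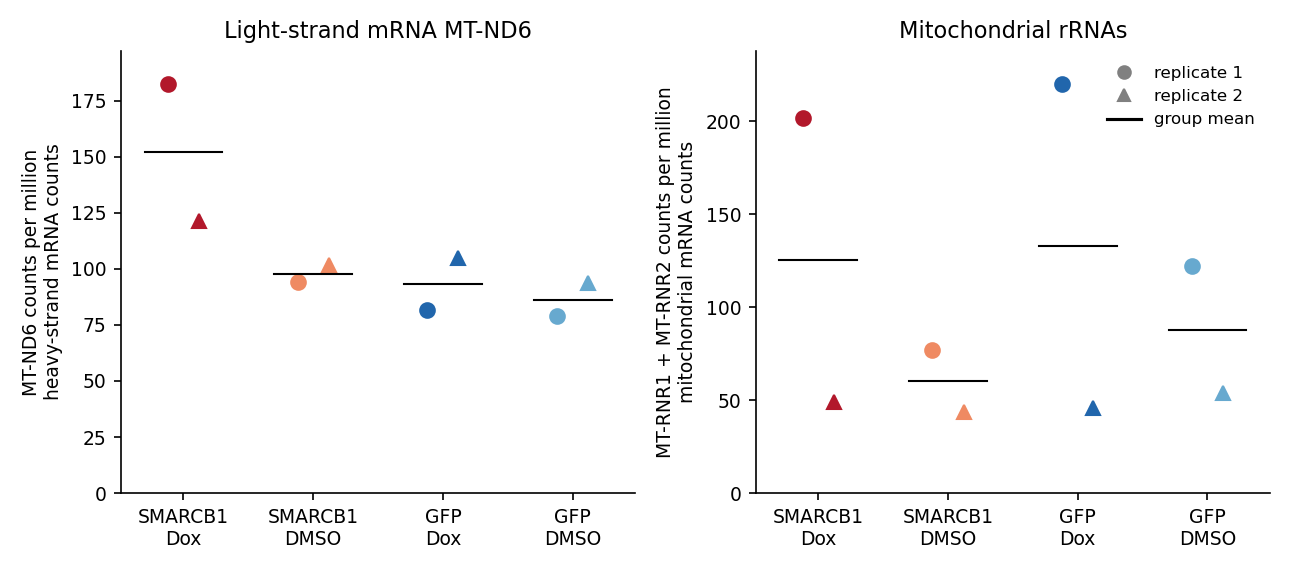
Left, MT-ND6 counts per 1000000 counts of the 12 heavy-strand mRNAs, and right, MT-RNR1 and MT-RNR2 counts per 1000000 counts of mitochondrial mRNA (vertical axes, from 0), by group. Circles and triangles are replicates 1 and 2 and lines are the means of 2. SMARCB1 Dox is highest on the left at 182.6 and 121.3, and on the right replicate 1 lies above replicate 2 in all 4 groups.

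The rRNAs had positive but uncertain values with Dox in the SMARCB1 line, with log2 fold changes of 0.89 ± 0.55 for MT-RNR1 and 0.66 ± 0.52 for MT-RNR2 (SE, edgeR adjusted p of 0.336 and 0.468). Their summed counts per 1000000 counts of mitochondrial mRNA were 202 and 49.3 in SMARCB1 Dox and 76.9 and 43.9 in SMARCB1 DMSO. The gap between the replicates of SMARCB1 Dox was larger than that between the groups. In CPM, MT-RNR1 was above its DMSO level of 6.79 with Dox in replicate 1, and had 2.95 with Dox and 3.03 with DMSO in replicate 2. MT-RNR2 had 31.1 with Dox and 16.9 with DMSO in replicate 1, and 7.50 with Dox and 7.67 with DMSO in replicate 2. In both rRNAs, the CPM with Dox was above that of the same-numbered DMSO library in replicate 1 only. The numbers mark no known pairs. The tRNAs MT-TV, MT-TM and MT-TH had log2 fold changes of -0.67 ± 0.45, 0.07 ± 0.47 and -0.02 ± 0.73 (SE), and a change of this size could not be resolved from so few counts.

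Within the mitochondrial total, few shares lay apart between Dox and DMSO in the SMARCB1 line. The share of MT-CO3 was higher in both SMARCB1 Dox libraries, at 9.69% and 9.51%, than in SMARCB1 DMSO, at 9.18% and 9.44%, and that of MT-ND5 was lower, at 9.39% and 9.49% against 9.52% and 9.74%. MT-ND6 was the third, at 0.0182% and 0.0121% against 0.00940% and 0.0102%. In the GFP line 2 shares lay apart, both higher with Dox. These were MT-CO3, at 8.99% and 9.09% against 8.89% and 8.93%, and MT-ND3, at 0.194% and 0.191% against 0.183% and 0.182%. With 2 libraries per group such gaps arise easily, and these shares were not tested. For 10 of the 13 mRNAs the shares in SMARCB1 Dox and SMARCB1 DMSO overlapped.

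Nuclear genes that make and handle mitochondrial RNA were taken from 5 lists with 68 genes, of which 67 were tested. With Dox in the SMARCB1 line, 1 was called higher and 2 lower, and the median log2 fold change was -0.05. Over all genes 8.33% were called higher and 5.69% lower, so these lists held fewer calls than the background of 14.0%. Among the calls, MTERF3, a factor that binds mitochondrial DNA and limits its transcription, had 31.6 ± 3.50 CPM in SMARCB1 Dox, 47.2 ± 1.35 in SMARCB1 DMSO, 42.5 ± 0.332 in GFP Dox and 41.3 ± 0.752 in GFP DMSO (SD, n = 2). Its counts were 1212 and 1017 in SMARCB1 Dox and 1403 and 1524 in SMARCB1 DMSO. The Dox libraries were the lower ones, with a log2 fold change of -0.58 ± 0.091 (SE, edgeR adjusted p = 1.33e-04). MTERF3 was also the only one of the 67 whose Dox effect differed between the lines, by -0.62 ± 0.13 (SE, edgeR adjusted p = 0.00555), and both calls were made in every alternative run.

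POLRMT (chr19:617221-633537, minus strand), the polymerase itself, had 43.6 ± 3.31 CPM in SMARCB1 Dox and 32.9 ± 2.80 in SMARCB1 DMSO (SD, n = 2), a log2 fold change of 0.40 ± 0.10 (SE, edgeR adjusted p = 0.00881). Its Dox effect was not shown to differ from that in the GFP line (difference 0.32, edgeR adjusted p = 0.257). RNASEH1, which removes RNA paired with mitochondrial DNA, fell by 0.29 on the log2 scale (edgeR adjusted p = 0.0158). The call of POLRMT was lost without SMARCB1 Dox replicate 1 or SMARCB1 DMSO replicate 1, and that of RNASEH1 without either SMARCB1 Dox library and with library totals. TFAM (chr10:58385345-58399220, plus strand), which packs mitochondrial DNA and starts its transcription, had a log2 fold change of -0.13, and LRPPRC (chr2:43886224-43996226, minus strand), which holds mitochondrial mRNAs stable, had -0.12. Neither was called. The lists for RNA cleavage and tRNA maturation, for mRNA stability and decay, and for rRNA modification and ribosome assembly held no call, with medians of -0.00091, -0.05 and -0.03. With Dox in the GFP line, edgeR and DESeq2 called 0 of the 67, and 0 had an unadjusted p under 0.05.

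Between the lines in DMSO, 3 of the 67 machinery genes were called higher and 10 lower, with a median of -0.04. Over all genes tested, 32.0% were called and 15.7% were called lower, so the lower calls were near the background and the higher calls below it. In the list for mRNA stability and decay, FASTKD2, an RNA-binding protein of the mitochondrial RNA granule, had 77.0 ± 3.86 CPM in SMARCB1 DMSO and 109 ± 6.69 in GFP DMSO (SD, n = 2), a log2 fold change of -0.50 (edgeR adjusted p = 4.12e-05). LRPPRC had -0.40 (edgeR adjusted p = 0.00180) and FASTK, another protein of that family, had 0.33. In the maintenance list, the helicase TWNK and the primase PRIMPOL had -0.43 and -0.44 and the kinase DGUOK, which makes DNA precursors, had 0.34. In the ribosome assembly list, the RNA helicases DDX28 and DHX30 had -0.51 and -0.29 and RPUSD3 had 0.35, and in the tRNA list GTPBP3 had -0.29. None of the 10 genes of the transcription list was called, including POLRMT at -0.21 and TFAM at 0.10. Annotated coding genes overlap TWNK, PRIMPOL, DDX28 and RPUSD3, so their counts are less certain. The calls of FASTKD2 and TWNK held in every alternative run, and the others were lost without at least 1 library, LRPPRC and DDX28 only without GFP DMSO replicate 2.

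The nuclear genes whose proteins join the mitochondrial ones in complexes I, III and IV and in ATP synthase were 75, all tested. Between the lines in DMSO, 28 were called higher in the SMARCB1 line and 1 lower, and the median log2 fold change was 0.24. Of all genes tested, 16.3% were called higher and 15.7% lower. By complex, 9 of 37 complex I genes were higher and 1 lower, 4 of 9 complex III genes were higher, 6 of 11 complex IV genes and 9 of 18 ATP synthase genes. The called members with the largest values were NDUFS4 at 0.67, NDUFA1 at 0.45 and NDUFS1 at -0.49 in complex I, and CYC1, UQCRFS1 and UQCR10 at 0.29, 0.29 and 0.28 in complex III. In complex IV they were COX4I1 at 0.63 (33.0 ± 0.638 CPM against 21.4 ± 0.345, SD, n = 2), COX6C at 0.58 and COX8A at 0.45. In ATP synthase they were ATP5ME, ATP5MJ and ATP5MF at 0.41, 0.37 and 0.36. COX4I1, COX6C, ATP5ME and ATP5MF overlap other coding genes.

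This count changed with scaling and with 1 library. With library totals, 7 were called higher and the median was 0.12 where that of all genes was -0.10. Without GFP DMSO replicate 2, 8 were called higher, and without SMARCB1 DMSO replicate 2, 16. The median stayed positive in these, at 0.18 and 0.21. COX4I1, COX6C, COX8A, NDUFS4 and NDUFS1 were called in every alternative run. With Dox in the SMARCB1 line, 1 of the 75 was called higher, UQCRC1 at 0.26, and 1 lower, NDUFB5 at -0.27, with a median of -0.04, where 14.0% of all genes were called. Both calls were lost without SMARCB1 DMSO replicate 1, among others. The mitochondrial mRNAs had a median of -0.32 in that comparison. In the GFP line 0 of the 75 were called by edgeR and by DESeq2, and 0 had an unadjusted p under 0.05.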

How the data were processed

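Total RNA of 8 samples was sequenced. The authors aligned reads with STAR and deposited raw counts per gene from HTSeq (exons, intersection-strict mode, GENCODE v42), and the submitters' processing notes name hg38. Versions and strand option were not given in the sources used here, and labels and methods name different library kits. Entries that name no gene (27.0% to 29.3% of reads) were left out. Symbols and positions came from GENCODE v44 on GRCh38, matched by identifier for 62625 of 69215 genes. Counts were tested with edgeR (4.0.16, R 4.3.3), after its default filter and TMM scaling, by the quasi-likelihood method over all 8 libraries with 1 mean for each group. Calls had a Benjamini-Hochberg adjusted p under 0.05. Standard errors were taken from the F statistic. The method was also run on simulated counts with changes placed in SMARCB1 Dox only. These held no difference between the lines or the replicate numbers, so that run does not bear on how stable the calls here are. Alternatives were DESeq2 (1.42.0), other scalings and filters, the compared groups alone, the replicate number as a block, and each library left out. The members and gene lists were chosen with earlier results of these data known. All mRNAs and rRNAs were named, tRNAs with at least 10 counts in every library, and of each nuclear list the 3 called genes of largest absolute log2 fold change, with TFAM, POLRMT, LRPPRC and SMARCB1 always.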

Additional observations from a re-analysis of the deposited data

How the results depend on the processing

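The count of mitochondrial genes called with Dox in the SMARCB1 line, 6, depended on the processing. It was 10 with DESeq2, 2 with library totals (MT-ATP8 lower, MT-ND6 higher), 1 with only the compared groups in the fit (MT-ATP8) and 14 without the expression filter, where MT-ND6, MT-RNR1 and MT-RNR2 were higher. With the replicate block it was 12, of which MT-RNR1 and MT-RNR2 were higher, and with the replicate block and a GC trend removed 9. Leaving out one library gave 1 to 11. No label says that same-numbered replicates of different groups share a batch, and over all genes tested their deviations correlated weakly (0.031 to 0.148). The block was therefore not used as the main fit. Both rRNAs were nevertheless higher in every replicate 1 library than in every replicate 2 library, so for them the number was not without structure. The cause of these changes was not tested. The fits of the compared groups alone and those without 1 library also held fewer samples. For the difference between the Dox effects the count was 1 without the expression filter (MT-ATP8) and 0 otherwise. In the GFP line it stayed 0 under every alternative. Between the lines it stayed within 8 to 12. Over all genes, library totals changed the split of higher and lower calls from 2600 and 2505 to 1732 and 3658 between the lines, and from 1327 and 907 to 1986 and 497 with Dox in the SMARCB1 line. With all reads as the denominator, the mitochondrial share was 15.8% in SMARCB1 Dox, 18.4% in SMARCB1 DMSO, 14.5% in GFP Dox and 15.3% in GFP DMSO. No member called in the main fit changed sign in that comparison under any alternative. Among members not called in the main fit, MT-ND6 with Dox in the SMARCB1 line ran from -0.06 to 0.63 on the log2 scale. Between the lines, MT-ND1 ran from -0.06 to 0.14 and MT-ND2 from -0.03 to 0.25. Some uncalled values of the Dox effect in the GFP line, such as those of MT-ATP8 and MT-CYB, also changed sign. With 2 libraries per group, effects of the size of the Dox effect here rest on single libraries.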
